A study of Mus musculus with 13 samples.

Results

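Organoids kept in ER medium, which carry genes of pit (surface mucous) cells, were set against freshly isolated whole corpus glands to ask how far the cultured epithelium matched the native one. The members were chosen by their titles, ER organoid replicates a, b and c and whole corpus gland replicates a and b, and make up 5 of the 13 arrays of the series. The organoids grew from single sorted Troy-positive chief cells of the mouse stomach. Troy is the product of Tnfrsf19, and the cells to be sorted came from mice carrying an EGFP-ires-CreERT2 cassette at the start site of that gene, which is expressed in basal chief cells and in parietal cells. ER medium holds EGF and Rspondin and leaves out the gastrin, FGF10, Noggin and Wnt3a of the full medium, called EGFNWR, in which sister cultures were kept (3 arrays). The glands were freed from the gastric corpus with EDTA and processed directly, without trypsin or sorting, so they hold every cell type that stays attached to a gland. The sources used here do not give the strain, age or sex of the mice, the time in each medium or the genotype of the gland donors. The labels state that sorted-cell arrays pooled glands of 10 mice and do not say whether the gland arrays were pooled too. All organoids descend from 1 sorted cell type, and the glands belong to the first of 2 experiments and the organoids to the second. Group, experiment, culture and cell makeup therefore cannot be told apart, and only large differences without overlap of arrays, and genes at equal level, are described.

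The gastric corpus is lined by tubular glands. Pit cells at the top secrete the mucin MUC5AC, trefoil factor and gastrokines and are replaced quickly. Below them lie mucous neck cells, acid-secreting parietal cells, scattered endocrine and tuft cells, and, at the base, chief cells that secrete digestive enzymes. Rspondin strengthens Wnt signalling, Noggin blocks BMP signalling, and EGF drives epithelial growth. Lowering Wnt signals is known to push gastric cultures toward pit cells.

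Levels are deposited log2 RMA intensities, on which 1 unit is a 2-fold change. A difference was called large where limma's adjusted p was under 0.05, the groups differed by at least 2 (4-fold) and no organoid array overlapped a gland array. A gene was called equal where the 95% confidence interval of the difference lay between -1 and 1 and both group means stood at least 1 above the array medians, which ran from 5.01 to 5.21. Genes near 13 have little room to differ on these arrays. Below the array median no signal above background is shown, and the size of such a difference is not fixed. The p-values measure the spread between arrays. The organoid arrays came from different organoid cultures per the series text, with no statement on animals. The gland arrays came from freshly isolated glands, and the number of mice behind each is not stated. In RNA from mixed cells, fewer cells of a type and less RNA per cell cannot be told apart.

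Over all probesets ER a and b correlated at 0.993, ER c with them at 0.987 and 0.985, the 2 gland arrays at 0.979, and organoid with gland arrays at 0.926 to 0.943. Each organoid array departed from the mean of the other two for some genes. ER a lay at least 1 above that mean for 84 genes and as far below for 67, ER b for 168 and 52, and ER c for 65 and 269. ER b was highest for several neck, chief and Wnt target genes. Lgr5, a receptor for Rspondin found on stem cells, read 4.33 on ER a, 7.80 on ER b and 4.50 on ER c. ER c was the lowest organoid array for others, among them Cldn4 and Cxcl5, whose values are given below. The gland arrays also differed. Replicate b lay at least 1 above replicate a for 431 genes and as far below for 240. Gast, which encodes gastrin and is typical of the antrum, read 5.30 on glands a and 8.88 on glands b. Results that rest on 1 of these arrays are given without it below.

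Sex-linked genes also differed between and within the groups. Eif2s3y, on the Y chromosome, read 3.60, 3.56 and 3.74 on ER a, b and c and 6.91 and 8.86 on glands a and b. Uty read at most 3.49 on the organoid arrays and 6.07 and 7.72 on the gland arrays. Kdm5d read at most 4.47 on the organoid arrays and 6.34 and 8.28 on the gland arrays, and its difference was -2.90, or -1.93 without glands b. Without glands a, 1 gene of this list was large higher. Xist, expressed from the inactive X chromosome, read 10.61, 10.58 and 10.12 in organoids, 11.01 on glands a and 6.00 on glands b. Levels of these genes, which follow the sex of the donor, thus moved with the groups, and their part in the results was not tested.

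Of 18820 genes, 425 were large and higher in ER organoids (2.26%), 347 were large and lower (1.84%) and 5200 were at equal level (27.6%). The equal-level genes were 66.4% of the 7829 genes bright enough in both groups to be eligible. Of them, 855 (16.4%) also had a limma adjusted p under 0.05, so equal means inside the interval and not without a difference. Among those named below, these included Klf5 (0.59), Jund (0.68), Fdft1 (0.58) and Eef1a1 (0.41). Arrays did not overlap for 9879 genes (52.5%), so lack of overlap alone was common. The median difference over all genes was 0.03. Of the lower genes, 167 (48.1%) were below the array median on every organoid array, and of the higher genes, 183 (43.1%) were below it on both gland arrays. For such genes the difference is a contrast between a measured level and a level not shown above background. Leaving out any 1 array gave between 346 and 518 higher and between 269 and 412 lower genes.

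**Figure D1:**
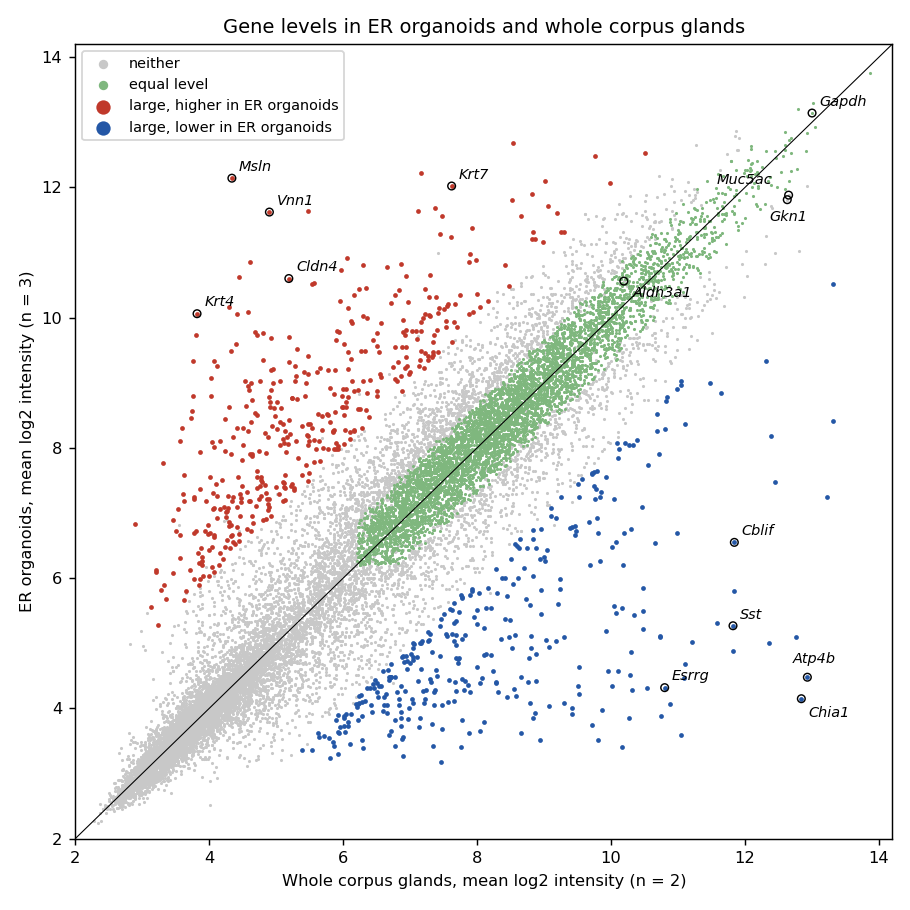
Mean log2 intensity of each gene in whole corpus glands (x axis, n = 2 arrays) and ER organoids (y axis, n = 3 arrays), coloured by class; the line marks equality. The pit markers Muc5ac, Gkn1 and Aldh3a1 sit near the line, Atp4b and Chia1 lie at the lower right, and Msln and Krt4 lie at the upper left.

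The pit cell genes of the organoids had a median close to their level in glands. Of 11 measured, 4 were equal, 1 was large and lower, 0 were large and higher and 6 met neither rule, with a median difference of -0.44 against 0.03 over all genes. Tff1, a trefoil factor of the surface mucus, read 12.90, 12.77 and 12.85 on ER a, b and c and 12.79 and 13.08 on glands a and b. Its difference was -0.10 (95% confidence interval -0.42 to 0.23), and the groups overlapped. Psca, a surface protein of pit cells, read 12.64, 12.28 and 12.75 against 12.90 and 12.93. All its organoid arrays lay below both gland arrays, by little (-0.36, interval -0.76 to 0.05). Sult1c2, a sulfotransferase, and Mucl3, a mucin-like protein, were the other equal members, at differences of -0.35 and -0.44. The call of Mucl3 was lost without glands a (-0.63), ER a (-0.48) or ER c (-0.49). In a fit of all 13 arrays, which lends the wider spread of the other groups, Tff1 and Psca were no longer inside the interval.

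Muc5ac, the mucin of the stomach surface, read 12.38, 10.79 and 12.48 on ER a, b and c and 12.47 and 12.83 on glands a and b. ER a and c were as high as glands a, and ER b was lower. The difference was -0.77 (SE 0.52, limma adjusted p = 0.344), its interval of -2.02 to 0.49 was too wide for the equal rule, and without ER b it was -0.22. Gkn1, a gastrokine made by pit cells, read 12.26, 11.11 and 12.06 against 12.46 and 12.80. Its groups did not overlap, the difference was -0.82 (SE 0.35, adjusted p = 0.147), and without ER b it was -0.47. Aldh3a1, an aldehyde dehydrogenase found in pit cells, read 10.49, 10.33 and 10.86 against 9.47 and 10.90. Here the spread lay between the gland arrays. The difference was 0.38 (interval -0.63 to 1.38), or -0.34 without glands a and 1.09 without glands b.

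Capn9, a calpain protease of pit cells, was the 1 large lower member. It read 5.59, 4.19 and 5.61 in ER organoids and 7.59 and 9.54 in glands, a difference of -3.43 (SE 0.67, adjusted p = 0.0146). Its partner Capn8 read 5.50, 5.50 and 6.33 against 6.33 and 10.05, and the groups met at 6.33. Without glands a, the difference of Capn8 was -4.27 and the list held 2 large lower members, and without glands b it was -0.55. The level of Capn8 in glands thus came from 1 array.

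Against EGFNWR organoids, which share the second experiment and its chief cell origin, 10 of the 11 pit genes were higher in ER medium by limma's adjusted p, where 9.14% of all genes were called higher and 10.1% lower. With the replicate letter as a block all 11 passed, Capn8 (0.77) with an adjusted p of 0.00584 in place of 0.0785. The comparison uses the same ER arrays, so its values stand beside those above and are not independent of them. Muc5ac read 8.07, 6.47 and 9.66 on EGFNWR a, b and c and was 3.82 higher in ER medium (adjusted p = 0.0155). Gkn1 read 7.64, 7.07 and 9.64 and was 3.69 higher (adjusted p = 0.00837). Aldh3a1 was 2.53 higher (adjusted p = 0.00878). EGFNWR c had the highest level of each of these genes in its group. Over all genes, 1720 were higher and 1892 lower in ER medium. The higher count was 872 without EGFNWR a, 1010 without EGFNWR b and 918 without ER a, and the lower count 1026, 1040 and 1026.

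**Figure D2:**
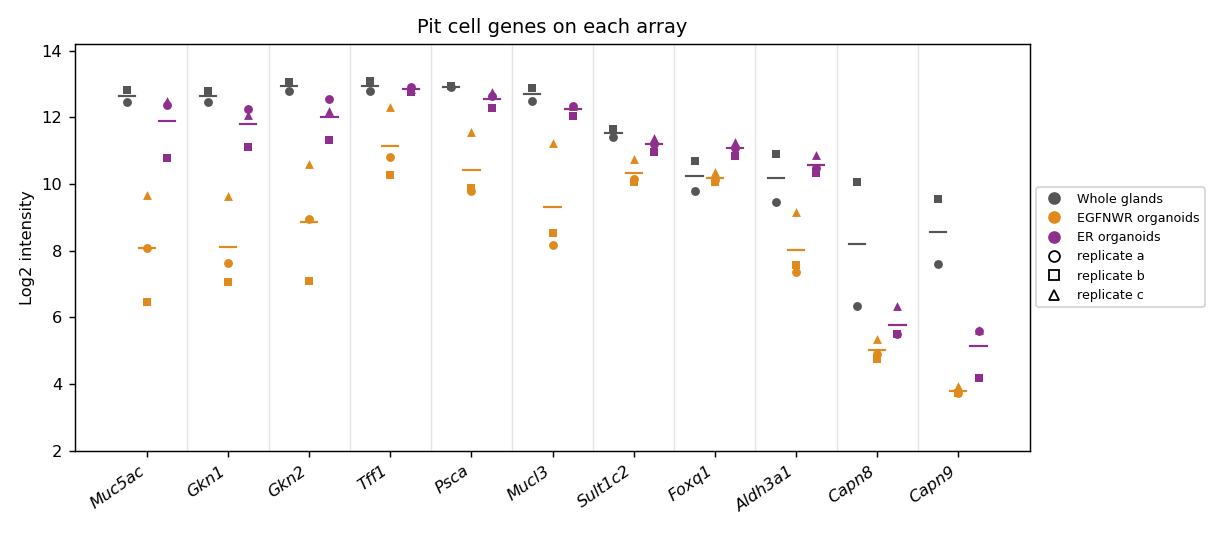
Log2 intensity of the 11 pit cell genes on each array of whole glands (2 arrays), EGFNWR organoids (3 arrays) and ER organoids (3 arrays); bars are group means and symbols mark the replicate letters. For Muc5ac, Gkn1 and Tff1 the ER organoids lie near the glands and above the EGFNWR organoids, and Capn9 stays low in both organoid groups.

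Genes that build the sugar chains of mucus had a median difference of 0.15. Of 17 mucin glycosylation genes, 5 were equal, 2 large higher, 0 large lower and 10 neither. C1galt1, which makes the core 1 sugar of mucins, read 10.47, 10.39 and 10.54 against 10.40 and 10.57, and Fut2, a fucosyltransferase, differed by 0.15 (interval -0.22 to 0.52). The higher members were St3gal4, a sialyltransferase, and Gcnt1, which branches core sugars. St3gal4 read 10.18, 10.00 and 9.91 in organoids and 7.46 and 5.15 in glands, a difference of 3.72 (SE 0.62, adjusted p = 0.00828). Gcnt1 differed by 2.60 (SE 0.27, adjusted p = 0.00197). The gland arrays differed from each other for St3gal4 by more than the organoid arrays did.

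Genes for folding secreted proteins in the endoplasmic reticulum were the list with the highest share at equal level among the 38 lists. The lists were chosen with earlier results of these data known. Of 17 folding genes measured, 15 were equal and 0 were large, with a median difference of -0.14. Of all genes bright enough in both groups, 66.4% were equal. Pdia3 and Dnajb11 lost the call without glands a, glands b, ER a or ER b, and Dnajc3 without glands b, ER a or ER b. Hsp90b1 lost it without glands b and Creld2 without glands a. Calr, which encodes the chaperone calreticulin, read 11.31, 11.47 and 11.19 against 11.49 and 11.62. Canx, for calnexin, read 11.29, 11.43 and 11.01 against 11.36 and 11.41. The members outside the rule were Sdf2l1 at 0.79 and Trib3, a stress-induced pseudokinase, at 1.82. In the medium comparison 14 of the 17 were lower in ER than in EGFNWR organoids, where 10.1% of all genes were. Without glands a, Trib3 was large higher. Xbp1, a transcription factor of secretory cells that acts on this gene set, was equal too (-0.16, interval -0.49 to 0.18).

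Most parietal cell genes were far lower in the organoids. Of 19 measured, 12 were large lower, 1 large higher, 4 equal and 2 neither, with a median of -2.40. Atp4b, a subunit of the acid pump, read 4.41, 4.32 and 4.72 on ER a, b and c and 13.04 and 12.83 on glands a and b. The difference was -8.45 (SE 0.16, adjusted p = 1.19e-05), and every organoid array was below the array median. Atp4a, the catalytic subunit, read 5.09, 5.11 and 5.10 against 12.91 and 12.61 (-7.66, SE 0.13, adjusted p = 1.19e-05). Kcnj16, a potassium channel subunit, read 3.71, 3.46 and 3.62 against 11.19 and 10.92. Esrrg, a nuclear receptor of parietal cells, read 4.02, 4.46 and 4.47 against 11.20 and 10.40. None of these 4 genes had an organoid array within 5 units of a gland array.

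Some genes of the parietal list kept the gland level. Slc9a4, a sodium-proton exchanger, read 12.02, 11.90 and 12.07 against 11.62 and 11.86 (0.26, interval -0.06 to 0.57). Car2, a carbonic anhydrase, read 12.63, 12.51 and 12.54 against 12.39 and 12.50. Both are known from other gastric epithelial cells as well. Tfcp2l1 and Ckmt1 were the other equal members. Both calls were lost without glands a, at differences of -0.66 and -0.54, and that of Tfcp2l1 also without ER a or ER c. Aqp4, a water channel of parietal cells, was the 1 large higher member at 2.63, and at 1.84 without glands b it dropped under the size limit. Atp4a, Atp4b and Kcnj16 had means of 5.93, 4.48 and 3.37 in EGFNWR organoids, so these genes were far below the gland level in both media. Atp4a read 6.38, 5.66 and 5.75 on EGFNWR a, b and c and was lower in ER medium (-0.83, limma adjusted p = 0.0196).

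Chief cell genes, those of the cell from which the cultures began, were lower for 7 of 9 members and equal for 0, with a median of -4.35. Chia1, a chitinase, had the largest fall of all genes, with 3.92, 4.25 and 4.27 on ER a, b and c and 13.09 and 12.60 on glands a and b (-8.70, SE 0.19, adjusted p = 2.48e-05). Pga5, a pepsinogen, read 3.94, 4.40 and 4.34 against 9.78 and 9.27. In EGFNWR organoids the means of Chia1 and Pga5 were 4.15 and 4.17. Pgc, the other pepsinogen, read 7.58, 10.12 and 7.54 against 13.37 and 13.26. Cblif, gastric intrinsic factor, read 5.04, 9.81 and 4.81 against 12.34 and 11.35. For Pgc and Cblif, ER b was well above ER a and c, toward the EGFNWR means of 11.79 and 11.09.

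The call of Cblif rested on few arrays. Its difference was -5.29 (SE 1.50, adjusted p = 0.0481), and the adjusted p was 0.183 without glands a, 0.101 without glands b, 0.133 without ER a and 0.128 without ER c. Bhlha15, the chief cell transcription factor also called Mist1, differed by -2.69, with adjusted p values of 0.071 without glands a, 0.0717 without ER a and 0.0692 without ER c. Clps, which encodes colipase, differed by -2.80 and stayed high in organoids, at 10.35, 10.41 and 10.77 against 13.44 and 13.19. The members that were not lower were Lipf, below the array median in both groups, and Cym, at 11.42, 11.73 and 8.03 against 9.42 and 7.15. Without ER c, Cym was large higher at 3.29 (adjusted p = 0.0459).

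Mucous neck genes split. Muc6, the gland mucin, read 6.84, 10.08 and 5.52 in organoids and 12.73 and 12.14 in glands (-4.96, SE 1.24, adjusted p = 0.033). A4gnt, which caps that mucin, read 4.40, 7.59 and 5.57 against 10.89 and 10.05 (-4.62, SE 0.88, adjusted p = 0.0133). ER b was again the highest organoid array for both. Tff2, a trefoil factor of neck cells, was equal, at 12.16, 12.36 and 12.33 against 12.71 and 12.83, although its interval of -0.79 to -0.19 excluded 0. The list held 2 large lower members of 5. It held 0 without glands a or without ER c and 1 without glands b or without ER a. For Muc6 the adjusted p was 0.133 without glands a, 0.0814 without glands b, 0.102 without ER a and 0.0683 without ER c, and for A4gnt 0.0709 without glands a and 0.0518 without ER c. In the medium comparison 4 of the 5 were lower in ER organoids, where 10.1% of all genes were, and Tff2 was higher.

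**Figure D3:**
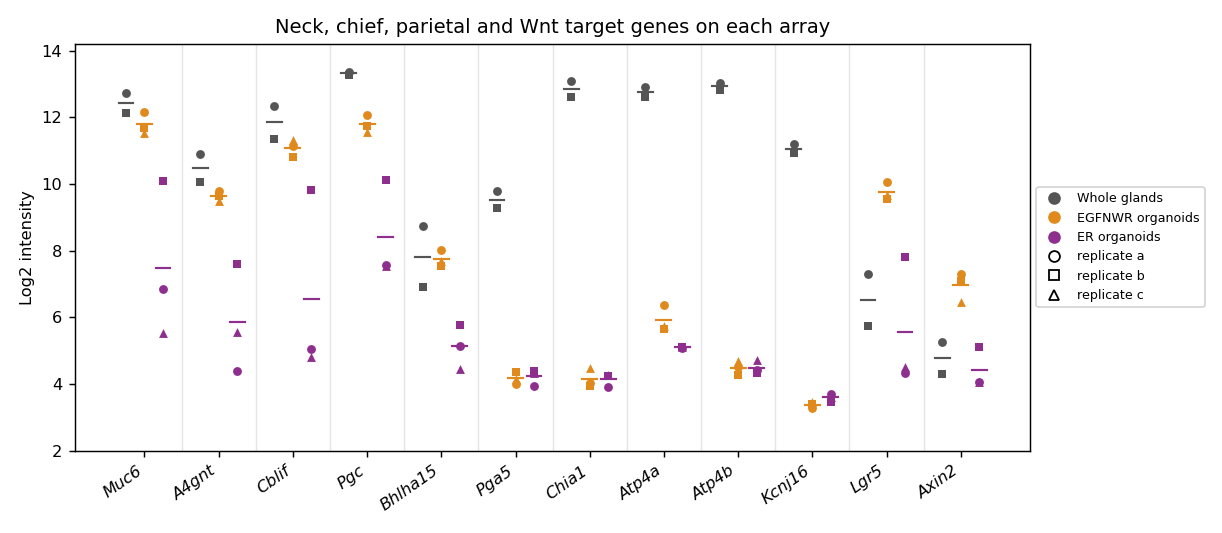
Log2 intensity of neck (Muc6, A4gnt), chief (Cblif, Pgc, Bhlha15, Pga5, Chia1), parietal (Atp4a, Atp4b, Kcnj16) and Wnt target genes (Lgr5, Axin2) on each array; bars are group means. ER b (square) lies above ER a and c for Muc6, Cblif, Pgc and Lgr5, and Chia1 and the parietal genes are low in both organoid groups.

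Endocrine cells of the corpus secrete hormones and histamine. Of 15 endocrine genes, 6 were large lower, 0 large higher and 0 equal, and 9 met neither rule, with a median of -1.76. Sst, for somatostatin, read 5.15, 5.17 and 5.50 on ER a, b and c and 12.22 and 11.42 on glands a and b (-6.55, SE 0.26, adjusted p = 9.5e-05). Chga, for the granule protein chromogranin A, read 4.80, 5.04 and 5.23 against 11.62 and 10.81. Ghrl, for ghrelin, read 5.30, 5.49 and 6.62 against 11.93 and 11.74. Slc18a2, the transporter that loads histamine into vesicles, read 3.63, 3.84 and 4.03 against 8.21 and 7.35. For the medium, 0 of the 15 passed the test in either direction, and with the replicate letter as a block 1 was higher, Gast at 0.30 (adjusted p = 0.0497). Tuft cell genes held 1 large lower member of 13, Gnat3, the taste G protein, at 3.85, 3.42 and 3.45 against 5.66 and 5.61. At -1.98 without ER b it dropped under the size limit, and without glands a 1 tuft gene was equal. By limma's adjusted p alone, 7 of the 13 tuft genes were lower, where 10.8% of all genes were.

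Most leukocyte and endothelial genes were below the array median in both groups, with exceptions in each list. Of all 18820 genes, 7482 were below it on all 5 arrays, 7990 on every organoid array and 8356 on both gland arrays. Of 16 leukocyte genes, 13 were below the array median in all 5 arrays, Ptprc (CD45) among them, with at most 4.69 on any array. The 1 large higher member was Cd68, a lysosomal protein of macrophages that other cells also express, at 9.46, 9.35 and 9.63 against 6.01 and 6.65, and 2 members were large higher without ER b or without ER c. Csf1r, a macrophage growth factor receptor, read 7.02, 5.50 and 5.61 on organoid and 3.88 and 4.26 on gland arrays (1.97, adjusted p = 0.0276), with an adjusted p of 0.123 without glands a, 0.0604 without glands b and 0.0502 without ER c. Laptm5, a lysosomal protein of blood cells, read 6.75, 7.93 and 5.52 against 4.94 and 4.92 (1.80, adjusted p = 0.0914). Both genes were higher on each organoid array than on either gland array, and the part of leukocytes in any result was not tested. The summed leukocyte list ran from 72.3 to 74.0 on organoid arrays and was 68.7 on both gland arrays. Of 13 stromal genes 0 were large, 11 were below the array median on every organoid array and 7 on both gland arrays. Col1a1 read 5.04 to 5.20 on organoid and 5.26 and 5.34 on gland arrays, Vim 4.52 to 4.92 and 5.66 and 6.06, and the sums were 55.3 to 55.7 and 56.9 and 63.9. Endothelial genes held 0 large of 9, with 6 below the array median in all 5 arrays, Pecam1 at most 4.04 on any array and sums of 39.6 to 39.9 on organoid arrays and 42.2 and 40.5 on gland arrays, and without glands b 1 was large lower and 1 equal. Plvap, of vessel walls, read 3.94, 4.15 and 4.05 on organoid and 6.44 and 5.31 on gland arrays (-1.83, adjusted p = 0.00982). Alas2, the only measured erythrocyte gene, read 4.04 to 4.41 over the 5 arrays.

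Genes of neighbouring organs gave mixed values. Among 12 intestinal genes, Apoa1 (5.48, 4.89 and 4.63 against 12.45 and 12.27) and Apoa4 (5.58, 5.23 and 5.58 against 10.53 and 9.63), which encode lipid-carrying apolipoproteins, were large lower. The intestinal regulator Cdx2 read at most 4.45 on any array. Vil1, for the microvillus protein villin, was large higher at 9.84, 9.92 and 9.82 against 6.90 and 8.18. Without glands a its difference of 2.32 was 1.68, under the size limit, and without ER c 2 members were large higher. Of 7 pancreatic genes the 1 large member was Cel, a lipase, at 3.47, 3.35 and 3.41 against 8.45 and 7.07. Of the acinar markers, Cpa1 read at most 4.62 on any array. Cela1, an elastase, read 5.44, 6.20 and 5.61 on ER a, b and c and 6.76 and 7.14 on glands a and b (-1.20, adjusted p = 0.0191), with an adjusted p of 0.0751 without glands b, 0.0601 without ER a and 0.0639 without ER c.

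**Figure D4:**
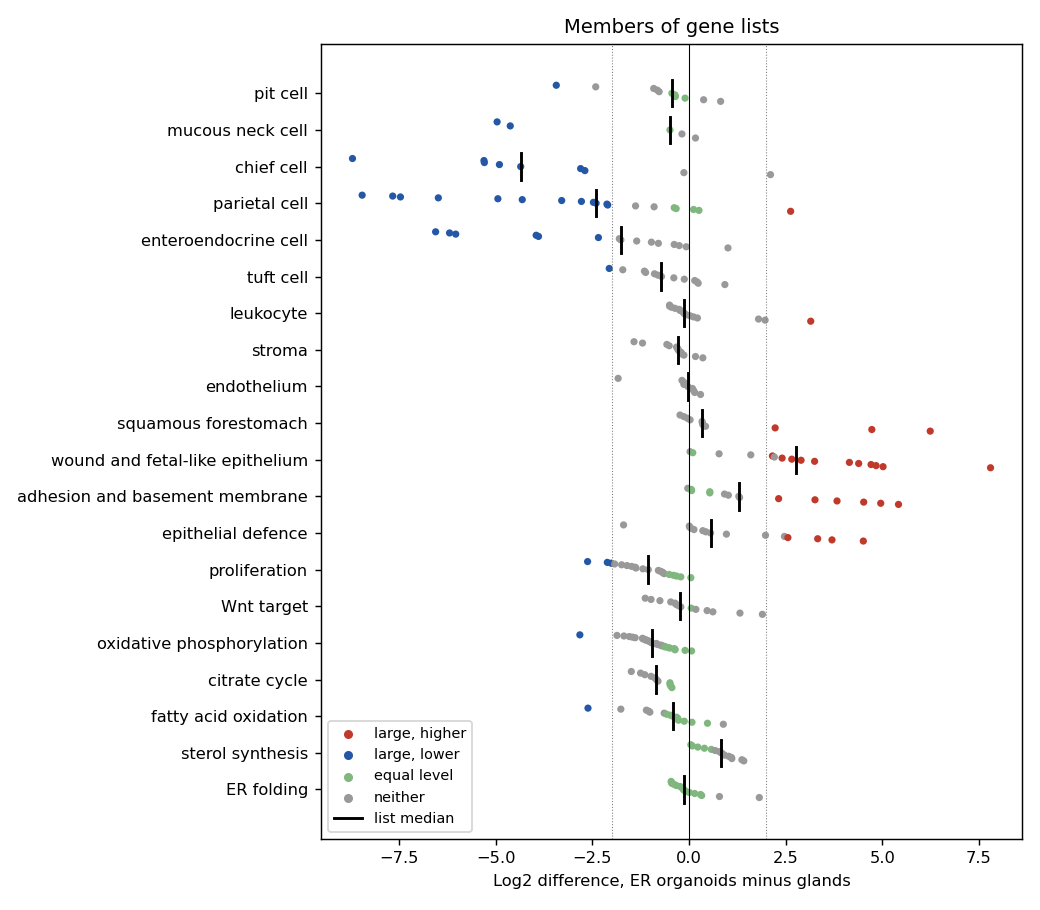
Log2 difference between ER organoids and glands for each measured member of 20 gene lists, coloured by class; black bars are list medians and dotted lines mark -2 and 2. Chief, parietal and endocrine lists reach far to the left, the wound and fetal-like list lies to the right, and the ER (endoplasmic reticulum) folding list is narrow around 0.

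The genes that stood highest over glands were of another kind. Msln, for the surface glycoprotein mesothelin, read 12.19, 12.23 and 11.99 on ER a, b and c and 4.33 and 4.35 on glands a and b (7.80, SE 0.12, adjusted p = 1.19e-05). Vnn1, for the pantetheinase vanin 1, read 11.78, 11.72 and 11.35 against 4.85 and 4.96. Depp1, a FOXO target, read 10.92, 10.64 and 11.03 against 4.60 and 4.62. In each of them the gland arrays were below the array median and the organoid arrays were bright. Ptgs2, for cyclooxygenase 2, read 11.15, 11.34 and 9.37 against 4.71 and 4.18. Cybrd1, an iron reductase, read 11.46, 11.75 and 11.70 against 5.01 and 5.96. The rest of the 10 largest were Krt4 and the genes Serpinb6b (a protease inhibitor), Efemp1 (a matrix glycoprotein), Plat (tissue plasminogen activator) and Loxl4 (a lysyl oxidase), at differences of 6.24, 5.93, 5.87, 5.63 and 5.59.

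These 10 genes had EGFNWR means between 8.08 (Plat) and 11.79 (Msln). Msln read 11.57 to 12.03 there and did not pass the medium test (0.35, adjusted p = 0.125). Vnn1, Depp1 and Plat were higher in ER than in EGFNWR organoids, by 1.47, 2.13 and 1.97 with adjusted p values of 0.028, 0.0085 and 0.00448. Ptgs2 differed by 0.45 between the media (adjusted p = 0.588). The part of each difference that comes with culture as such and the part that comes with ER medium were not separated by a test against glands.

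The wound and fetal-like epithelium list gathers genes known to rise when gut epithelium repairs itself and when YAP, a sensor of cell stretch and contact, is active. Of 16 measured, 11 were large higher, 0 large lower, 1 equal and 4 neither, with a median of 2.78. Over all genes 2.26% were large higher. No other of the 38 lists held as many large higher members. The lists differ in size and were chosen with earlier results of these data known, so this ranking is no test. Il1rn, the interleukin 1 receptor antagonist, read 10.07, 9.61 and 9.53 against 4.73 and 4.71 (5.02, SE 0.19, adjusted p = 8.55e-05). Ccn2, a YAP target, read 10.87, 11.66 and 10.19 against 6.59 and 5.54 (4.84, SE 0.48). Ankrd1, another YAP target, read 8.21, 9.36 and 7.35 against 3.66 and 3.54 (4.71, SE 0.54). Anxa10, an annexin of pit cells, was equal, at 12.05, 11.85 and 11.97 against 11.72 and 11.99. The calls of S100a6 and Anxa3 were lost without glands a, at 1.43 and 1.42, and without any 1 organoid array. In the medium comparison 6 of the 16 were higher and 2 lower in ER than in EGFNWR organoids. Over all genes 9.14% were called higher and 10.1% lower.

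The promoters of 3 genes are shown from RefSeq on build GRCm38.p6, 1 near the gland level (Gkn1), 1 lower (Atp4a) and 1 higher (Ankrd1). Each run is the 250 bases before the start site, 5′ to 3′ on the strand of the gene, and capitals mark matches to a motif. Motifs were searched on both strands over 250 bases before to 50 bases after each start. The element bound by ESRR receptors was spelled AAGGTCA. The core bound by TEAD proteins, the partners of YAP, was spelled GGAATG. The element of the GATA factor family was spelled AGATAA. Gkn1 lies at chr6:87350916-87351165 (minus strand), Atp4a at chr7:30711959-30712208 (plus strand) and Ankrd1 at chr19:36119845-36120094 (minus strand).
Gkn1: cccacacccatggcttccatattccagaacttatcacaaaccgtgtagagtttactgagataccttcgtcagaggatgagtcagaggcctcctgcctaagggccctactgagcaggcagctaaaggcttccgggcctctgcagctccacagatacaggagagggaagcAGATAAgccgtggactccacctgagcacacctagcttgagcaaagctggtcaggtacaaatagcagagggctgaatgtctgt
Atp4a: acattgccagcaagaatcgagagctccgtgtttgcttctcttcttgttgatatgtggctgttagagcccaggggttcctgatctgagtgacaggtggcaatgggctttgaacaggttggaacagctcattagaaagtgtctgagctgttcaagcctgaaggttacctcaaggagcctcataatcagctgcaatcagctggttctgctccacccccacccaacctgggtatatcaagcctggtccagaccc
Ankrd1: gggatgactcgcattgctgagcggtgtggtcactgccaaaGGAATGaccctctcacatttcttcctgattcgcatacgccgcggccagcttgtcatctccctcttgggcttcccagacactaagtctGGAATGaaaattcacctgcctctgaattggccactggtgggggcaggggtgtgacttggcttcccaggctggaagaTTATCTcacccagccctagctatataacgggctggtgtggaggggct
Ankrd1 held GGAATG starting at bases 41 and 128 and, on the other strand, AGATAA at base 204. Gkn1 held AGATAA at base 169, and none of the 3 motifs was found in the window of Atp4a. Krt7, a large higher gene, was scanned too and held none of the 3 motifs, and its promoter is not shown. The table held promoters for 8 of the 11 large higher wound genes, and 4 of their 10 promoters contained GGAATG, against 14.7% of 32851 promoters. It held 9 of the 12 large lower parietal genes, and 1 of their 19 promoters contained AAGGTCA (4.72% of all promoters) and 2 AGATAA (11.2% of all). Of the 409 promoters of all large higher genes, 18.1% contained GGAATG. Of the 318 promoters of all large lower genes, 5.35% contained AAGGTCA and 11.0% AGATAA. These are letter matches only.

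Genes of cell adhesion and the basement membrane were large higher for some members and equal for others. Of 15 measured, 6 were large higher, 0 large lower, 4 equal and 5 neither, with a median of 1.29. Cldn4, for a tight junction claudin, read 11.00, 11.24 and 9.56 on ER a, b and c and 5.07 and 5.30 on glands a and b (5.42, SE 0.49, adjusted p = 0.00125). Cldn7, a second claudin, read 9.93, 9.88 and 9.50 against 4.81 and 4.82. Both claudins were near or below the array median in glands and bright in organoids. Itga2, a collagen-binding integrin, read 10.90, 11.18 and 10.36 against 6.24 and 6.34. Plaur, the urokinase receptor, read 10.25, 10.03 and 9.58 against 5.36 and 6.89. Cdh1 (E-cadherin) and Itga6, which mark epithelial contact in both settings, were equal at 0.06 and 0.07. The equal count was 2 without ER a.

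Among simple keratins, which form the filaments of glandular epithelium, Krt8 was equal at 12.86, 12.80 and 12.88 against 12.38 and 12.82. Krt7, a keratin of ductal epithelium, was large higher at 12.13, 12.08 and 11.84 against 7.32 and 7.93 (4.39, SE 0.21, adjusted p = 0.000163). Krt20, a keratin of mature surface cells, was large higher at 10.04, 10.42 and 10.86 against 4.29 and 8.19. The 2 gland arrays of Krt20 lay far apart, and its call was lost without any 1 organoid array (adjusted p of 0.0771 to 0.0998), which left 1 large member of 6, and without glands a 3 members were equal. Krt4, a keratin of stratified epithelium, read 10.04, 10.42 and 9.71 against 3.82 and 3.82 (6.24, SE 0.21). Ivl (involucrin) and Lor (loricrin), proteins of the cornified envelope, were also large higher, at 4.73 and 2.23. The call of Lor was lost without ER a, ER b, glands a or glands b, with adjusted p values of 0.0637, 0.0655, 0.104 and 0.0617. The basal squamous markers Krt5, Krt14 and Trp63 read at most 4.76, 5.40 and 4.30 on organoid arrays, near or below the array median, unlike Krt4, Ivl and Lor of the same list. Of the 11 squamous genes measured, these 3 were large higher, 0 large lower, 0 equal and 8 neither, with a median of 0.35. On both gland arrays 10 of them were below the array median, and 4 were on every organoid array. Squamous list sums were 59.9 to 62.6 on organoid and 46.8 and 47.7 on gland arrays.

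**Figure D5:**
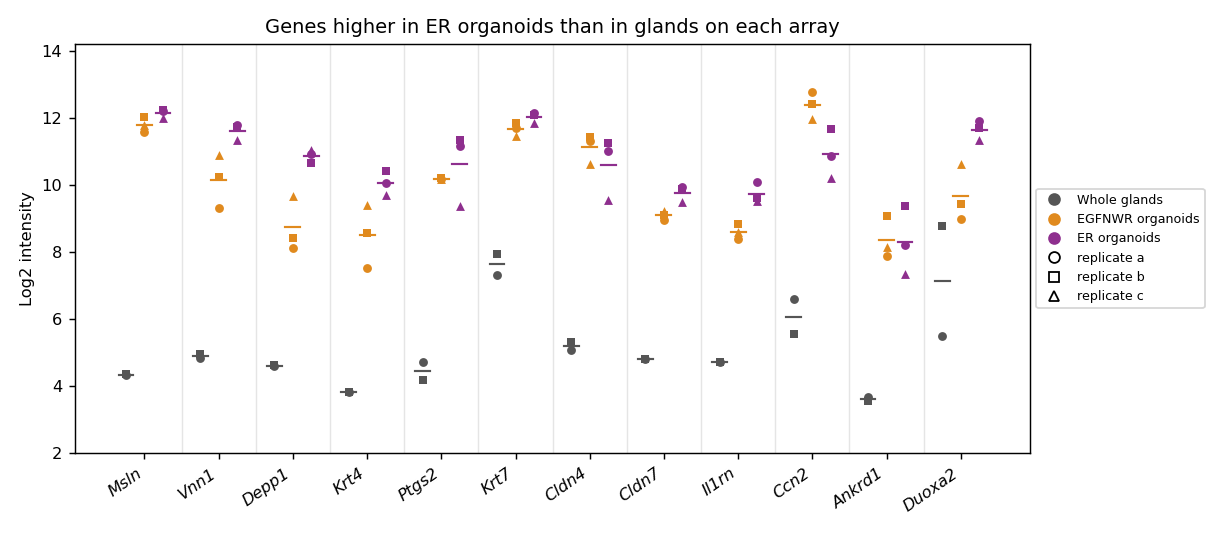
Log2 intensity on each array of 12 genes that were large and higher in ER organoids than in glands, with EGFNWR organoids beside them; bars are group means. The gland arrays of Msln, Vnn1, Krt4 and Cldn7 lie below 5, both organoid groups lie above 7 for these genes, and the gland arrays of Duoxa2 are far apart.

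Epithelial defence genes held 4 large higher members of 15, 0 large lower and 0 equal. Duoxa2, which matures the dual oxidase DUOX2, read 11.89, 11.69 and 11.33 on ER a, b and c and 5.49 and 8.76 on glands a and b (4.51, SE 0.87, adjusted p = 0.0141). Duox2, which makes hydrogen peroxide at the cell surface, read 10.79, 10.71 and 10.42 against 5.40 and 8.47. Ccl20, a chemokine, read 8.91, 8.25 and 8.03 against 4.87 and 5.26. Cxcl5, a second chemokine, read 6.49, 6.58 and 4.60 against 3.22 and 3.43. Only Ccl20 of these 4 kept its call whichever array was left out. The count was 1 without ER a and 2 without ER b, where 1 other gene was large lower. For Duoxa2 the adjusted p was 0.0526 without ER a, for Duox2 0.0723, 0.058 and 0.0642 without ER a, b and c, and for Cxcl5 0.081 and 0.0634 without ER a and b and 0.109 and 0.0704 without glands a and b.

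Of 16 interferon and antigen presentation genes, 2 were large higher, 0 large lower and 1 equal. The equal gene was B2m, the light chain of MHC class I, at 12.28, 12.09 and 12.13 against 12.01 and 12.16. Irf7, an interferon regulatory factor, read 10.65, 9.68 and 10.31 against 6.44 and 8.69, and H2-T23, a class I heavy chain, 9.43, 9.03 and 9.60 against 6.55 and 7.76. Glands b exceeded glands a by a median of 1.08 over this list. The count was 0 without glands a, 5 without glands b and 1 without ER a or ER c, so it rested on which gland array was used, and 2 members were equal without glands a.

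Genes of the mitochondrial respiratory chain had a median below the gland level. Of 29 oxidative phosphorylation genes, 8 were equal, 1 large lower, 0 large higher and 20 neither, with a median of -0.96 and a range of -2.82 to 0.07. Atp5b, of ATP synthase, read 11.81, 11.82 and 11.62 on ER a, b and c and 12.39 and 12.20 on glands a and b, equal by the rule at -0.54. Cox6c, of cytochrome c oxidase, was equal at -0.62. Both intervals excluded 0 on the lower side, and both calls were lost without glands b (-0.64 and -0.69), that of Cox6c also without ER a. Ndufa4 read 7.12, 7.60 and 6.93 against 10.27 and 9.80 (-2.82, SE 0.24, adjusted p = 0.00103). The equal count was 5 and the large lower count 2 without glands b. Of 11 citrate cycle genes, 4 were equal and 0 large, with differences from -1.49 to -0.44. By limma's adjusted p alone, 23 of the 29 oxidative phosphorylation genes and all 11 citrate cycle genes were lower, where 10.8% of all genes were. Parietal cells are known for their many mitochondria, and the parietal genes above moved with these mitochondrial genes between the groups. A link between them was not tested.

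Of 17 fatty acid oxidation genes, 10 were equal, 1 was large lower and 6 met neither rule, with a median of -0.42. By adjusted p alone 7 were lower and 1 higher, where 10.8% and 14.8% of all genes were. The lower count was 5 to 7 with 1 array left out and 2 with a replicate block. Etfa and Etfdh, which pass electrons from beta oxidation to the respiratory chain, differed by -1.10 and -1.04. Etfb and Acaa2 were equal at -0.32 and 0.48, the latter not without glands b, ER a or ER b. The large lower member was Ppargc1a, a regulator of mitochondrial genes, at 6.85, 6.98 and 6.47 against 9.85 and 8.91 (-2.61, SE 0.30, adjusted p = 0.0026). Of 17 glycolysis and hypoxia genes, 9 were equal, with Gapdh at 13.12, 13.17 and 13.12 against 12.96 and 13.04 and Aldoa at 0.24. By adjusted p alone 9 of the 17 were higher and 0 lower. The 1 large higher member was Egln3, an oxygen-sensing hydroxylase, at 2.03. It dropped under the size limit without glands a (1.42) or ER b (1.98), which left 0. Sterol synthesis genes held 5 equal of 15 and 0 large, with Hmgcs1 equal at 0.05 and Fdft1 at 0.58. Their differences ran from 0.05 to 1.42 and their median was 0.84. By adjusted p alone 11 of the 15 were higher and 0 lower. The equal count was 3 without glands b or without ER b, and Fdft1 lost its call in both cases.

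Oxidative stress and aldehyde metabolism genes held 6 equal of 19 and 2 large higher. Gsto1 and Gsta4, glutathione transferases, were equal at 0.55 and 0.50, and both calls were lost without glands b and without any 1 organoid array. The equal count was 3 without glands b. Hmox1, for heme oxygenase 1, read 9.07, 9.07 and 8.50 on ER a, b and c and 5.73 and 6.60 on glands a and b (2.72, SE 0.30, adjusted p = 0.00235). Akr1b8, an aldo-keto reductase, read 11.66, 11.41 and 11.08 against 6.20 and 9.65, and its call was lost without glands a (1.73) and without any 1 organoid array. In the medium comparison 12 of the 19 were higher and 2 lower in ER organoids, where 9.14% and 10.1% of all genes were.

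Proliferation genes had a median below the gland level. Of 21 measured, 3 were large lower, 0 large higher, 5 equal and 13 neither, with a median of -1.05. Mki67, for Ki-67, read 5.92, 7.35 and 7.10 on ER a, b and c and 9.33 and 9.49 on glands a and b (-2.62, SE 0.41, adjusted p = 0.00707). Ccna2 and Ccnb2, cyclins of the G2 and M phases, differed by -2.11 and -2.01. ER a was the lowest organoid array for all 3. Pcna, a replication clamp, was equal at 9.80, 9.83 and 9.76 against 10.06 and 9.96, as was the replication helicase gene Mcm7. Ccna2 lost its call without any 1 array but ER b, and Ccnb2 without glands a, glands b or ER a. The large lower count was 1 without glands b or without ER a, and the equal count was 9 without ER a. For the medium, 20 of the 21 were lower in ER than in EGFNWR organoids, where 10.1% of all genes were.

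Wnt target genes differed from the gland level by a median of -0.24. Of 14 measured, 1 was equal (Ephb3, at 0.06, an ephrin receptor), 0 were large and 13 met neither rule. In the medium comparison 10 were lower in ER than in EGFNWR organoids, where 10.1% of all genes were. Lgr5 read 7.31 and 5.73 on the gland arrays. ER b (7.80) lay above both, and ER a (4.33) and ER c (4.50) lay below both, so the overlap rested on ER b. Axin2, a feedback inhibitor of Wnt signalling, read 4.06, 5.11 and 4.07 against 5.25 and 4.30. The ER b array lay above the mean of ER a and c by a median of 0.68 over this list. Without ER b, Lgr5 was the 1 large lower member, at -2.11 (limma adjusted p = 0.0471). Without glands b or ER c 1 was large higher, and without ER c 2 were equal.

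Among 11 stem cell candidates, Aqp5, a water channel, read 10.78, 11.01 and 9.46 against 7.40 and 6.28 (3.58, SE 0.54, adjusted p = 0.00596), and Sox2, a foregut transcription factor, 8.71, 9.11 and 9.35 against 7.03 and 6.52 (2.28, SE 0.24). Both were large higher. Cckbr, the gastrin receptor, was large lower at 4.09, 3.97 and 4.15 against 6.39 and 6.05. Without glands a, its difference of -2.15 became -1.98, which left 0 large lower members, and without ER b there were 2. Prom1 and Runx1 were equal at 0.47 and 0.26. Of 10 metaplasia genes, Wfdc2, a secreted protein of injured gastric glands, was large higher at 11.79, 11.67 and 11.21 against 7.32 and 7.64 (4.08, SE 0.21, adjusted p = 0.000209), with Aqp5 the other. Gpx2 was equal at 0.11, a call lost without glands a or ER a. Olfm4 was large lower at -2.24, and was lost without glands a (-1.92) or ER c (-1.98).

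Transcription factors that set gastric identity ranged in difference from -1.20 to 2.28. Of 18 measured, 6 were equal, 1 large higher (Sox2), 0 large lower and 11 neither, with a median of 0.04. Klf5, an epithelial factor, read 11.18, 11.34 and 11.23 on ER a, b and c and 10.65 and 10.67 on glands a and b. Foxa1, a foregut factor, differed by -0.28 (interval -0.62 to 0.05). Gata4 and Gata6, GATA factors of the stomach, differed by -1.20 and -0.76 and met neither rule. Gata5 lay the other way, at 10.87, 10.93 and 10.93 against 10.09 and 10.62. It was equal, a call lost without glands b or any 1 organoid array. Pdx1, a factor of antrum and duodenum, read 8.10, 7.63 and 7.33 against 4.79 and 6.61, a difference of 1.99, just under the limit, and 2 factors were large higher without glands b.

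Early response, growth factor and stress genes differed for single members. Gadd45b, a stress-induced growth arrest gene, read 10.07, 10.02 and 9.90 on ER a, b and c and 6.20 and 6.50 on glands a and b (3.65, SE 0.14, adjusted p = 9.12e-05), and Ier3 read 8.64, 8.49 and 8.34 against 5.06 and 6.30. They were the 2 large members of 17 immediate early genes, of which 4 were equal, Jund and Zfp36 among them at 0.68 and 0.53. Jund lost its call without any 1 array but ER c, and Zfp36 without glands b, ER b or ER c. The equal count was 2 without glands b or without ER b, and 1 gene was large lower without glands b. Hbegf, an EGF family ligand, was the 1 large higher of 13 EGF pathway genes, at 10.00, 10.18 and 9.87 against 7.09 and 7.50, 2 were large higher without glands b or without ER c, and 2 were equal without glands a. Heat shock genes held 4 equal of 8 and 0 large, with Hspa8 at 0.23 and Hsp90aa1 at 0.28.

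Of 11 p53 and cell cycle inhibitor genes, Trp53inp1 (2.23) and Cdkn2a (2.21) were large higher and Cdkn1b was equal at -0.06. Both large calls were lost without glands a, glands b, ER a or ER b, which left 0, and without glands b 1 gene was large lower and 2 were equal. Clock genes held 4 equal of 12 and 0 large, with Clock at -0.12 and Npas2 at 0.27, and 2 equal without ER b. Npas2 lost its call without glands b or ER b. Fkbp5, induced by glucocorticoids, was the 1 large lower gene of 7 in that response, at 4.38, 4.64 and 4.46 against 7.06 and 6.29, and at -1.80 without glands a it dropped under the size limit. Without glands b 2 were large lower, and without ER b 1 was equal.

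The brightest equal-level genes were ribosomal RNA (Rn28s1, at -0.10), 7SK RNA (Rn7sk, at -0.13), Actb (0.28), Gapdh (0.14), Eef1a1 (0.41), Tff1, Psca, Krt8 and the predicted genes Gm6981 (0.09) and Gm12070 (0.07). Most are genes that every cell uses, and Tff1 and Psca are the secretory and surface products of pit cells. The lower genes not yet given among the 10 largest were Smim38, Slc7a8 (an amino acid transporter), Pdia2 (a disulfide isomerase of secretory cells), Try10 (a trypsin) and Slc16a7 (a monocarboxylate transporter), at -6.93, -6.86, -6.81, -6.76 and -6.62.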

How the data were processed

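RNA of 13 samples was hybridised to Affymetrix mouse gene arrays. The authors deposited log2 values for 35556 probesets, made with RMA and Affymetrix Power Tools per the submitters' processing notes (the sources used here give no versions). Because RMA levels the distributions of arrays, it hides shifts that most genes share. Of the probesets, 21218 had 1 gene symbol in the platform annotation, 1881 several and 12457 none, and 21202 matched RefSeq (GRCm38.p6). Each gene used its brightest single-symbol probeset (18820 genes, 1386 with several).

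ER organoids and glands (5 arrays) were compared in R 4.3.3 by limma 3.58.1 (lmFit, eBayes; statmod 1.5.0 for the replicate block), with no block in the comparison itself, and adjusted p-values are Benjamini-Hochberg values over all genes. ER and EGFNWR organoids (6 arrays) had a fit of their own, called at an adjusted p under 0.05. The fit was tested on simulated data. The number of arrays limits the precision. Deviations of equally lettered ER and gland arrays correlated at -0.115 and -0.266, and letters were not taken as pairs. The deviations of 2 gland arrays mirror each other, so these values say little about pairing. Deviations of ER and EGFNWR arrays correlated at 0.183, 0.233 and 0.386 for equal letters and at -0.305 to 0.146 for unlike letters. The labels do not state pairs, and letters served as pairs only in the fit with a block. The medium results printed are from the fit without a block, with the blocked value beside those whose call it changes.

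The members, the 38 lists and the rules were chosen with earlier results of these data known. Named are the 4 markers, the 10 largest differences each way, the 10 brightest equal genes and, per list, up to 4 large and 2 equal members or the 2 brightest. Other list members, Lgr5, Axin2, Gast, Xist and the genes of the closing section were named after their values were seen. Alternatives covered the arrays in the fit, normalization, dim genes, the choice of probeset, the thresholds, a replicate block and each array left out.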

Additional observations from a re-analysis of the deposited data

How the results depend on the processing

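Of the 772 large differences, 562 (replicate block) to 772 were called with the same sign under the alternatives that kept the thresholds, and 0 changed sign. Large higher and lower genes numbered 1251 and 967 at a difference of at least 1, 169 and 139 at 3, and testing every probeset gave 564 lower and 7919 equal. Equal genes numbered 1616 with an interval within 0.5 and 13775 with no minimum level. With all 13 arrays in 1 fit, ER against EGFNWR organoids gave 677 higher and 1027 lower. Leaving out 1 array gave 346 to 518 large higher, 269 to 412 large lower and 4512 to 5292 equal genes, and 872 to 1629 higher and 1026 to 1885 lower for the medium. A replicate block gave 383 large higher, 249 large lower and 4438 equal genes, and 1944 higher and 2497 lower for the medium. There it gave 16 lower for protein folding, 7 higher for the wound list and 11 higher for oxidative stress, left the other list counts printed for the medium as they were, apart from the pit and endocrine lists, and changed no other call printed for the medium of a single gene. Centring each array on its median moved the median of all genes from 0.027 to 0.178 and gave 495 higher and 285 lower, without the calls of Ccna2, Ccnb2, Cckbr and Gnat3. The cause of these shifts was not tested, apart from those that the thresholds and the number of probesets or arrays set. With 2 gland arrays, many moderate differences could not be called large or equal.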

Other observations

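Single genes outside the lists had large differences too, and those given here were chosen after their values were seen, so they stand for no wider group. Lpl, for lipoprotein lipase, read 3.78, 3.90 and 3.90 on ER a, b and c and 10.69 and 9.86 on glands a and b. Cd36, a fatty acid transporter, read 3.63, 3.71 and 3.90 against 10.15 and 9.27, and Fabp3, a fatty acid binding protein, 3.91, 3.95 and 4.07 against 10.17 and 9.57. Ckb, the brain-type creatine kinase, differed by -6.27 and Cox7a1, a cytochrome oxidase subunit of oxidative tissues, by -6.42. Lpl, Cd36, Fabp3 and Cox7a1 had EGFNWR levels of at most 4.74 and Ckb of up to 6.46. The mitochondrial creatine kinase gene Ckmt1, by contrast, was at equal level at -0.38. The receptor genes Cckar (for cholecystokinin), Glp1r and Sctr (for secretin) differed by -5.50, -5.39 and -5.52. Lpl, Cd36, Fabp3, Ckb, Cox7a1 and the 3 receptor genes were large lower whichever array was left out.

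Among genes higher in organoids, Sftpd, a collectin that binds microbes, read 9.03, 9.23 and 8.96 on ER a, b and c and 4.07 and 3.99 on glands a and b. Ptges, the enzyme after Ptgs2 in prostaglandin E2 synthesis, read 9.81, 9.74 and 8.93 against 4.33 and 4.31. F3, for tissue factor, was 4.76 higher, and Cdh13, a cadherin, 4.76 as well. Msn, for moesin, was 4.48 higher. Clca1, which processes mucus, read 12.59, 11.70 and 12.36 against 5.68 and 8.63, so its gland arrays differed from each other by more than its organoid arrays. Ctse, for the protease cathepsin E, was at equal level, at 12.66, 12.64 and 12.65 against 12.50 and 12.70.

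The 2 gland arrays were far apart for some genes. Zg16, a secreted lectin, was 4.50 higher on glands b, Krt20 3.90 and Gast 3.58. Chil4, a chitinase-like protein, was 5.10 lower on glands b and Slc9a3, a sodium-proton exchanger, 4.62 lower. Parietal genes were lower on glands b by a median of 0.39 and pit genes higher by a median of 0.36. Of the 5200 equal-level genes, 13 were at least 1 higher and 2 at least 1 lower on glands b.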
